A study of Mus musculus with 6 samples.

Results

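Ionotropic receptors are membrane channels that open when a transmitter binds to them, and the genes described here encode their subunits in mouse. They were taken as every gene whose symbol starts with Gria, Grik, Grin1, Grin2, Grin3, Grid, Gabra, Gabrb, Gabrg, Gabrd, Gabre, Gabrr, Glra, Glrb, Chrna, Chrnb, Chrnd, Chrne, Htr3 or P2rx. The rule found 65 genes with a named probe, of 20099 such genes on the array. Of these, 64 encode channel subunits. The remaining gene, Grid2ip, encodes delphilin, a scaffold protein that binds a delta glutamate receptor, and it entered through its symbol alone. Grin1os and Chrna1os also matched by symbol but no probe was matched to them.

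RNA was measured in neuro2a (N2a) cells, a mouse neuroblastoma line, on Agilent SurePrint G3 Mouse 8x60K single-colour arrays. The 3 control samples, labelled Vector, received an empty RNAi vector without a targeting sequence. The 3 knockdown samples, labelled YAYC, received miR RNAi vectors targeting NF-YA and -YC, subunits of the transcription factor NF-Y, which binds CCAAT sequences. The vectors were introduced by transient transfection, and no sorting of transfected N2a cells is described. In such bulk RNA, fewer expressing cells and less RNA per cell cannot be told apart. Nothing states that the 3 samples of a group came from separate cultures, so the p-values measure the spread between these samples, which may be technical.

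Ionotropic receptors are assembled from several subunits around a pore. AMPA, kainate and NMDA receptors bind glutamate and carry fast excitation in the brain. GABA-A and glycine receptors pass chloride and are the main inhibitory channels of the adult nervous system. Nicotinic receptors bind acetylcholine at muscle, ganglia and in the brain, 5-HT3 receptors bind serotonin, and P2X receptors bind extracellular ATP. N2a cells derive from a tumour of the sympathetic lineage, whose neurons receive their input through nicotinic receptors.

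Every level below is a log2 normalized signal, on which each array's own 75th percentile of processed signal is 0. Values of 3 arrays are given in the order of their replicate numbers. Every change is knockdown minus control on this log2 scale, with its standard error from limma (n = 3 arrays a group). Calls needed an adjusted p below 0.05 together with a fold change above 1.5. The words rose and fell are used for called genes only. A probe was detected on an array where the scanner software flagged it as well above background. Levels of different probes cannot be ranked against each other.

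The knocked-down genes were checked before the receptors. Nfyc fell from a mean of 3.97 ± 0.034 (SD) in control to 2.17 ± 0.038 in knockdown (change -1.81, adjusted p 0.000323), and Nfya fell by 0.76 (adjusted p 0.00128). Nfyb, the untargeted subunit, rose by 0.83 (adjusted p 0.00131). The arrays correlated at 0.989 to 0.994 within groups and at 0.987 to 0.990 between groups. Of 19 sympathetic neuroblast markers, 18 were detected on all 6 arrays, and their summed level was 8.74 to 8.78 in control and 8.66 to 8.72 in knockdown, without overlap. Of the 19, 3 (15.8%) were called lower, against 5.0% of all genes tested. By adjusted p alone 5 of these markers (26.3%) were lower and 3 (15.8%) higher, against 15.8% and 15.7% of all genes. Their part in the receptor results was not tested. Of 14 glial, fibroblast and leukocyte markers with a probe, 11 were detected on all 6 arrays and Col3a1 on no array. Their summed level was 2.88 to 3.09 in control and 2.82 to 3.06 in knockdown. Of the 14, 2 (14.3%) were called lower, against 5.0% of all genes. By adjusted p alone 4 (28.6%) were lower and 0 higher, against 15.8% and 15.7% of all genes. At an unadjusted p below 0.05 there were 6 lower and 0 higher. The arrays lay on 1 slide, with the 3 controls and knockdown replicate 1 in a row and knockdown replicates 2 and 3 in the next.

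Because NF-Y binds CCAAT, the promoters of the receptor genes were searched for CCAAT and its reverse complement ATTGG. The window ran from 250 bases before to 50 bases after each start in the RefSeq promoter table (GRCm38.p6), which held 44 of the 65 genes. Of these 44 genes, 14 (31.8%) held the motif, against 41.1% of all 27025 genes of the table, a gene with several starts counting if any of them held it. Of the 18 genes in the table that were detected on all 6 arrays, 3 (16.7%) held it, namely Gabrr2, Gabrb2 and Grid2ip. Among the 7 genes of the table with an adjusted p below 0.05 it was in 1, Grid2ip. Of the receptor genes called below, Htr3a was not in the table, and Chrna5 and Chrna9 held neither orientation at any listed start. The promoters below are chosen examples that do not reflect the share of genes with the motif, with any CCAAT in capitals. Each is written 5′ to 3′ on the strand of its gene. Grik5 (chr7:25072320-25072619, minus strand), Grin1 (chr2:25319138-25319437, minus strand) and Chrnb2 (chr3:89764583-89764882, minus strand) had neither orientation of the motif in this window. Gabrr2 (chr4:33062862-33063161, plus strand) had CCAAT 109 bases upstream of the start, and Grid2ip (chr5:143363663-143363962, plus strand) 55 bases upstream. The other Grid2ip start of the table (chr5:143369824-143370123) held neither orientation, and Gabrb2 held the motif at 1 of its 3 starts. A match describes the letters of the window and is not a shown binding site.
Grik5: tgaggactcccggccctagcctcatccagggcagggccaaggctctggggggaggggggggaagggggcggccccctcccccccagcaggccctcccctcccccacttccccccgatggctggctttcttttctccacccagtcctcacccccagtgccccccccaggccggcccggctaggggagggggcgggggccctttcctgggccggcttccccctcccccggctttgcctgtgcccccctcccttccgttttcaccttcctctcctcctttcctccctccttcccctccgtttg
Grin1: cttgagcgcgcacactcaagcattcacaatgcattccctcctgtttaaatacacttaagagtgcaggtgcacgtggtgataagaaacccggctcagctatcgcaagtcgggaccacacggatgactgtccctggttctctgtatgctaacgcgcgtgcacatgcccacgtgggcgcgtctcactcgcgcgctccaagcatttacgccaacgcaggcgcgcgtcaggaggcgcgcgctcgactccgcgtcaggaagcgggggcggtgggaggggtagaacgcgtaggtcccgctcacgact
Chrnb2: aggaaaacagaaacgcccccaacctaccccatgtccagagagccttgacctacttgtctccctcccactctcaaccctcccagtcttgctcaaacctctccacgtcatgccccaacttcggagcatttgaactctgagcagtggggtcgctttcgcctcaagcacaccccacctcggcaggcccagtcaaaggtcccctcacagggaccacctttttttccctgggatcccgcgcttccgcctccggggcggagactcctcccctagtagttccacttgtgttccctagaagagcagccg
Gabrr2: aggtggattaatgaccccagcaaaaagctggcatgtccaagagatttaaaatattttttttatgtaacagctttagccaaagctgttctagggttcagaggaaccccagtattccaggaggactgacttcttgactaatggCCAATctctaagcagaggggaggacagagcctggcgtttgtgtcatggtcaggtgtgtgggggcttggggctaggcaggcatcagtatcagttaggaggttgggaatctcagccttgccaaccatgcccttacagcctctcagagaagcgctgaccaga
Grid2ip: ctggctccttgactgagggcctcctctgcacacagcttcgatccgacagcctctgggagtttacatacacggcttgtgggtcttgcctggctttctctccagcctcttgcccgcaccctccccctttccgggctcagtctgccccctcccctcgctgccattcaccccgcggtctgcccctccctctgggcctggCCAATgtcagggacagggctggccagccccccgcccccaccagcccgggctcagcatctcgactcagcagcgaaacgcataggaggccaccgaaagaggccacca

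N2a cells had a measurable signal for part of these genes. Of the 64 subunit genes, each read from its brightest probe, 28 were detected on all 6 arrays, 15 on 1 to 5 arrays and 21 on no array. Some of the 28 had other probes. Those of Grin1, P2rx3 and P2rx7 were also detected on all 6 arrays. Those of Gria2, Grik2, Grin2a, Grin2b, Gabrg3, P2rx2 and Chrna1 were detected on no array. P2X subunits (6 of 7 on all 6 arrays), NMDA subunits (4 of 7), nicotinic subunits (7 of 15) and GABA-A subunits (5 of 14, without the rho genes) held most of the detected genes. AMPA subunits had 1 of 4, kainate subunits 2 of 5, the rho genes 2 of 3 and 5-HT3 subunits 1 of 2. No glycine receptor subunit was detected on all 6 arrays. The plot of detection by family shows these counts.

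**Figure D1:**
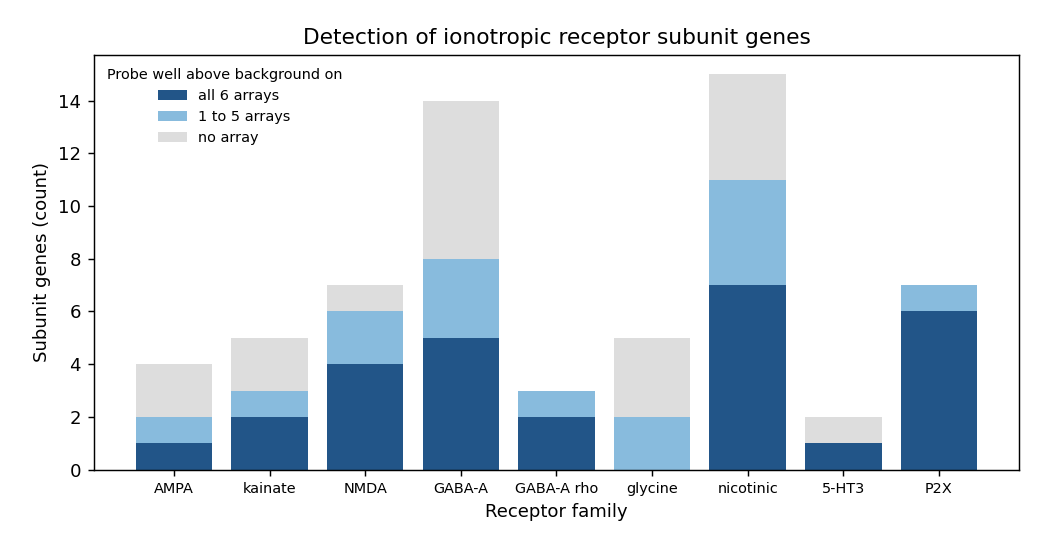
Number of subunit genes (vertical axis) in each receptor family (horizontal axis), split by whether all 6 arrays, 1 to 5 arrays or no array flagged the gene's brightest probe as above background. Delta receptors are not drawn. P2X had 6 of 7 genes detected on all 6 arrays, whereas glycine receptors had no such gene.

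The undetected subunits include partners of detected ones. Chrna4, which with Chrnb2 makes the main high-affinity nicotinic receptor of the brain, was detected on no array, and neither was Htr3b, which assembles with Htr3a. Gria1, which encodes an abundant AMPA subunit, and Glrb, the glycine receptor subunit that binds gephyrin, were also detected on no array. The 21 undetected subunits had a median level of -8.31, -8.45 and -8.30 on the control arrays and of -8.23, -7.77 and -7.98 on the knockdown arrays. The level of undetected probes was thus higher on knockdown replicates 2 and 3 than on the other 4 arrays. The dimmest probe that was well above background lay at -5.74 and -5.94 on those arrays and between -6.74 and -6.46 on the other 4. Dim subunits were therefore held to a higher level for detection on knockdown replicates 2 and 3.

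Several subunit genes lie beside each other on the chromosome, within 500000 bases in the RefSeq table, and neighbours differed in detection. On chromosome 5, Gabrg1, Gabra2, Gabra4 and Gabrb1 lie in a cluster, and no array detected any of these 4 genes. In a cluster of chromosome 11, Gabrb2 was detected on all 6 arrays and Gabra6 on no array. In that of chromosome 7, Gabrg3 was detected on all 6 arrays and Gabra5 on 5. On chromosome 9, Chrna3 and Chrnb4, the subunits typical of autonomic ganglia, were detected on all 6 arrays, while their neighbour Chrna5 was detected on 2 knockdown arrays.

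The knockdown changed few receptor genes past both thresholds. Of 48 genes with enough signal to be tested (45 in both groups, Grik3 in control alone, Chrne and Chrna10 in knockdown alone), Htr3a fell, which is 2.08%, and Chrna5 and Chrna9 rose, which is 4.17%. Among all 16490 genes tested, 5.0% were called lower and 3.91% higher. At an adjusted p below 0.05 without a minimum fold, 5 receptor genes were lower (10.4%) and 6 higher (12.5%), against 15.8% and 15.7% of all genes. The 3 knockdown arrays lay below all controls for 12 genes (25.0%) and above them for 9 (18.8%), against 27.1% and 27.7% of all genes. The median change was 0.019 over the 48 tested genes and 0.0053 over all genes. Over the 29 genes detected on all 6 arrays it was 0.011, against 0.0036 over all 13976 genes so detected.

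**Figure D2:**
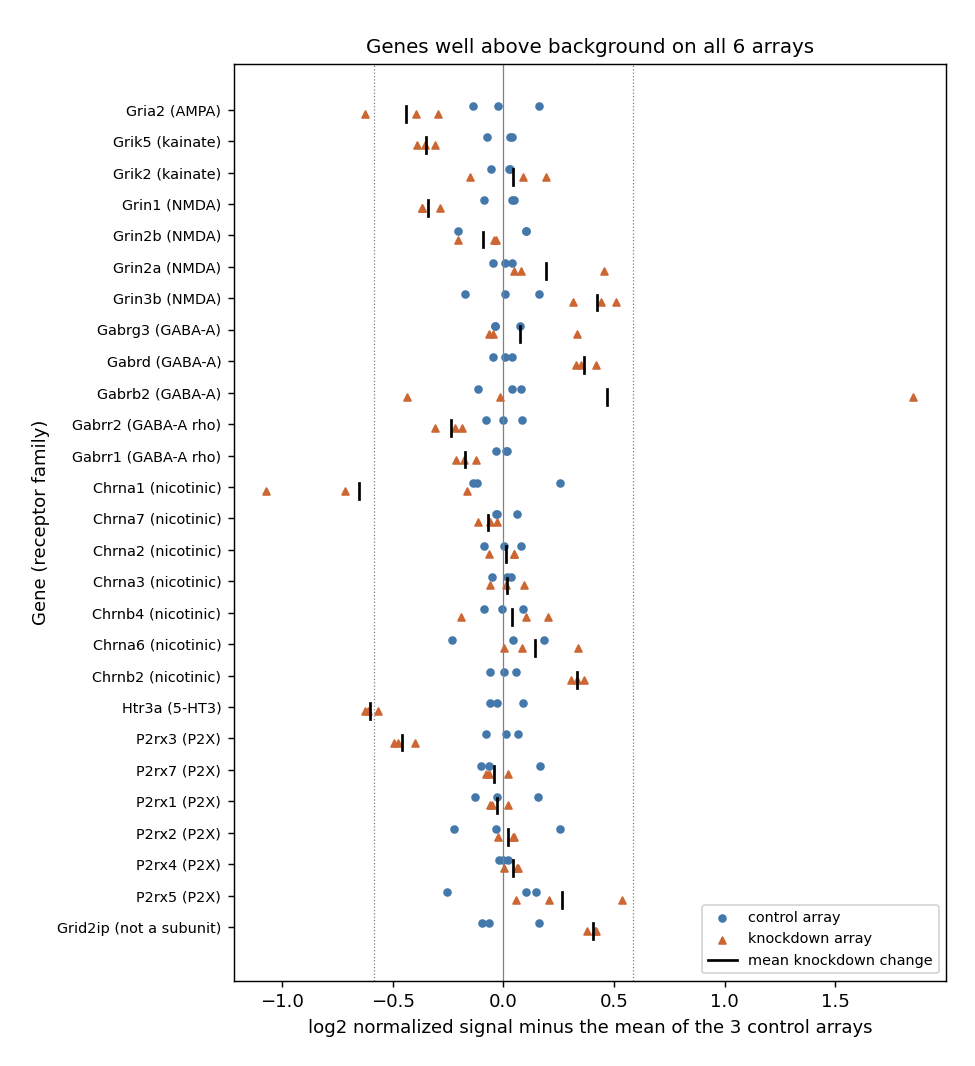
Of the 29 genes detected on all 6 arrays, 27 (vertical axis, with their families) are drawn, each with its 3 control arrays (circles), its 3 knockdown arrays (triangles) and the mean change (bar), as log2 normalized signal minus the control mean (horizontal axis). Dotted lines mark a 1.5-fold change in either direction, and Htr3a is the called gene among these 29, at -0.60.

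Of these 29 genes, 9 had an adjusted p below 0.05. For the other 20 the precision of 3 arrays a group sets the limit. Their 95% confidence intervals had half-widths between 0.11 and 1.57 with a median of 0.29. In 15 of the 20 the interval lay within a 1.5-fold change in either direction. The other 5 included Gria2, Gabrb2, Chrna1 and P2rx5, for which a change of 1.5-fold was within the interval.

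Among the glutamate receptors, the kainate subunit Grik5 and the obligatory NMDA subunit Grin1 had lower signal in knockdown, whereas the NMDA subunit Grin3b had higher signal. None of these 3 changes reached 1.5-fold. Grik5 encodes a high-affinity kainate subunit that needs a partner subunit to form a channel. It stood at 1.71, 1.71 and 1.60 in control and at 1.37, 1.28 and 1.32 in knockdown (change -0.35 ± 0.053, adjusted p 0.00999). The groups did not overlap. Its possible partner Grik2 did not share this difference, with a mean of -4.09 in control and -4.05 in knockdown (change 0.043, adjusted p 0.793, 95% interval -0.21 to 0.30). Grik4, the other high-affinity subunit, was detected on 5 arrays and its groups overlapped (change -0.059, adjusted p 0.919).

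Grin1, without which no NMDA receptor forms, stood at -0.81, -0.80 and -0.94 in control and at -1.14, -1.22 and -1.22 in knockdown. Every knockdown array lay below the controls (change -0.34 ± 0.058, adjusted p 0.0142). A dimmer Grin1 probe gave -0.16 ± 0.22 (adjusted p 0.650), with an overlap of the groups. Grin3b encodes a glycine-binding subunit that lowers calcium permeability. It stood at -4.77, -4.59 and -4.44 in control and at -4.16, -4.10 and -4.29 in knockdown, again without overlap (change 0.42 ± 0.10, adjusted p 0.0432). Of 16 alternative settings, the adjusted p stayed below 0.05 in 10 for Grin1 and in 5 for Grin3b. Here and below, 1 of the 16, the setting without a minimum fold, repeats the adjusted p of the main fit. The glutamate-binding subunits Grin2a and Grin2b differed by 0.19 and -0.093 (adjusted p 0.322 and 0.594).

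Gria2, whose edited form makes AMPA receptors impermeable to calcium, was the AMPA subunit detected on all 6 arrays. This holds for its brightest probe, while a dimmer Gria2 probe was detected on no array and was not tested. On the brightest probe the levels were -4.15, -3.96 and -4.26 in control and -4.42, -4.75 and -4.52 in knockdown. The knockdown arrays were below the controls, but the change of -0.44 ± 0.12 missed the threshold (adjusted p 0.0570). The delta subunit Grid1 was detected on no array, while Grid2ip was detected on all 6. Grid2ip stood at -0.35, -0.58 and -0.61 in control and at -0.10, -0.10 and -0.14 in knockdown. All knockdown arrays were higher than the controls (change 0.40 ± 0.081, adjusted p 0.0235), and the adjusted p stayed below 0.05 in 9 of 16 alternative settings.

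The groups did not overlap for any of the 9 genes detected on all 6 arrays with an adjusted p below 0.05. Knockdown replicate 1, in the same slide row as the controls, thus had to differ from the control mean in the direction of the 3-array mean. That shared direction therefore decides nothing about the slide row. Knockdown replicate 1 differed by -0.31 for Grik5, -0.29 for Grin1, 0.44 for Grin3b and 0.42 for Grid2ip. It differed by 0.33 for Gabrd, 0.36 for Chrnb2, -0.56 for Htr3a and -0.40 for P2rx3. These are the changes of the fit with the slide row as a block, which rests on that array. In that fit Htr3a kept an adjusted p below 0.05 (0.038), and for the other 8 it ranged from 0.067 for Chrnb2 to 0.19 for Grin3b.

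**Figure D3:**
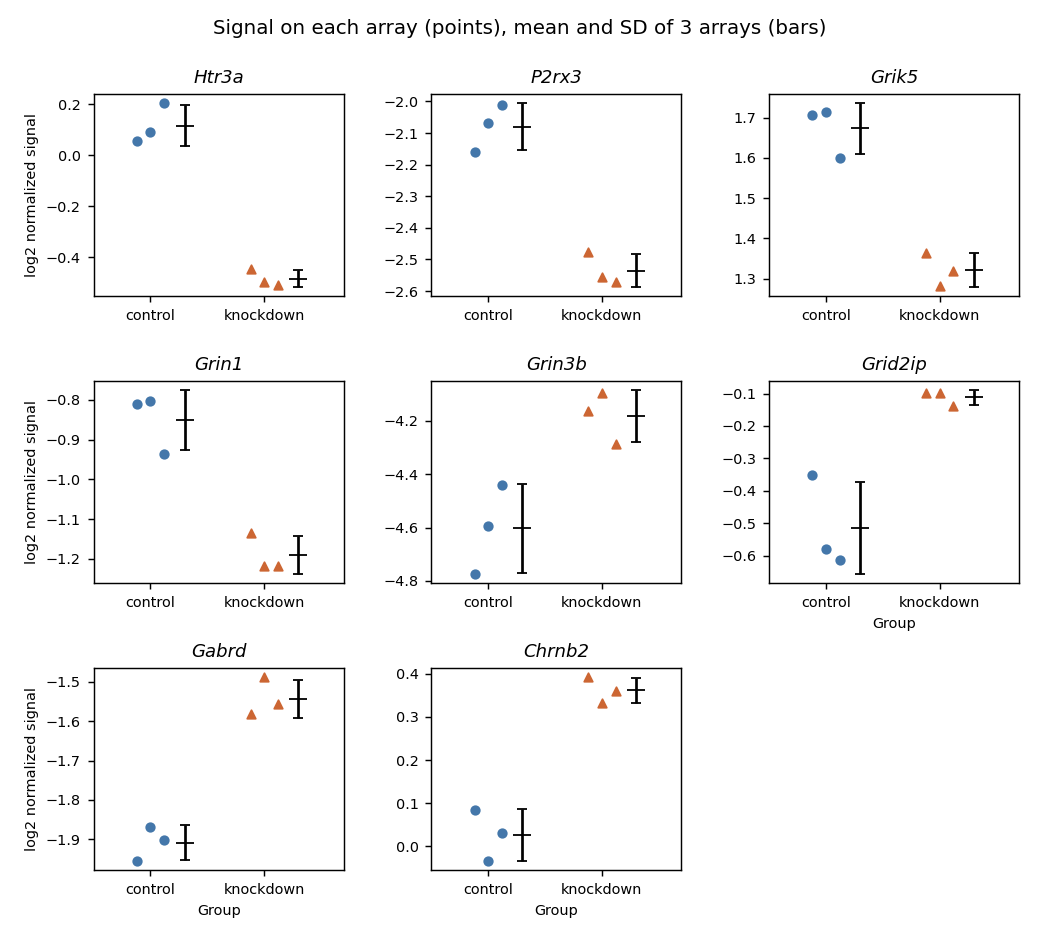
Log2 normalized signal (vertical axis, its own range in each panel) of 8 genes detected on all 6 arrays with an adjusted p below 0.05, in control and knockdown (horizontal axis). Points are arrays, and bars are the mean and SD of 3 arrays. In each panel the groups do not overlap, with Htr3a, P2rx3, Grik5 and Grin1 lower and Grin3b, Grid2ip, Gabrd and Chrnb2 higher in knockdown.

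Among the GABA-A genes, Gabrd had higher signal in knockdown. It encodes the delta subunit of extrasynaptic receptors. It stood at -1.96, -1.87 and -1.90 in control and at -1.58, -1.49 and -1.56 in knockdown (change 0.37 ± 0.050, adjusted p 0.00701). The groups did not overlap, and the change was under 1.5-fold. The adjusted p stayed below 0.05 in 15 of 16 alternative settings. The gamma subunit gene Gabrg3 and the alpha subunit gene Gabra5 differed by 0.074 and 0.049 (adjusted p 0.714 and 0.851).

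Gabrb2, which encodes a beta subunit, lay between -4.64 and -4.13 on 5 arrays and at -2.35 on knockdown replicate 3. Its mean change was 0.47 (adjusted p 0.639) and, without that array, -0.22.

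The rho genes Gabrr1 and Gabrr2 encode subunits of chloride channels best known from the retina, and they are neighbours on chromosome 4. Gabrr2 stood at 2.29, 2.13 and 2.20 in control and at 2.02, 1.99 and 1.90 in knockdown (change -0.24 ± 0.064, adjusted p 0.0529). Gabrr1 stood at -1.34, -1.38 and -1.33 in control and at -1.53, -1.56 and -1.47 in knockdown (change -0.17 ± 0.045, adjusted p 0.0504). All knockdown arrays lay below the controls for both genes, and neither passed the threshold. Of the glycine receptor genes, Glra4 was detected on 5 arrays, and its groups overlapped (change -0.21 ± 0.22, adjusted p 0.566).

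Among the nicotinic genes, Chrnb2 had the clearest difference of those detected on all 6 arrays. It encodes the beta subunit of most brain nicotinic receptors. Its levels were 0.09, -0.03 and 0.03 in control and 0.39, 0.33 and 0.36 in knockdown (change 0.33 ± 0.050, adjusted p 0.00951), which is under 1.5-fold. The groups did not overlap, and the adjusted p stayed below 0.05 in 15 of 16 alternative settings. The ganglionic subunits Chrna3 and Chrnb4 differed by 0.015 (95% interval -0.13 to 0.16) and 0.037 (-0.26 to 0.34), with adjusted p of 0.883 and 0.854. Chrna7, which forms channels of its own, differed by -0.067 (-0.19 to 0.061, adjusted p 0.402), and Chrna2 by 0.011 (-0.16 to 0.18, adjusted p 0.927). For these 4 genes the intervals lay within a 1.5-fold change. Chrna6, found in dopamine neurons, differed by 0.14 ± 0.14 (adjusted p 0.532).

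Chrna5 and Chrna9 rose past both thresholds but were near background. Chrna5 encodes an accessory subunit of ganglionic and brain receptors. It was detected on no control and on 2 of 3 knockdown arrays, with measured levels of -6.38, -7.16 and -6.26 in control and -5.34, -5.33 and -5.81 in knockdown. On the main scaling the bound on its means was 1.88-fold higher in knockdown (limma adjusted p 0.0478 for the measured change). Knockdown replicate 3, where it was undetected, entered at its measured value, so this bound is not strict. Over the alternatives the Chrna5 change ranged from 0.15 to 1.28. Chrna9, a subunit of inner ear hair cells, was likewise detected on no control and on 2 of 3 knockdown arrays, at -7.29, -6.69 and -6.64 in control and -5.70, -5.30 and -6.06 in knockdown. Its bound, with the same limit, was 1.87-fold higher (limma adjusted p 0.0328 for the measured change). Over the alternatives the Chrna9 change ranged from 0.20 to 1.38. The groups did not overlap for either gene. Leaving out any array ended the call for Chrna5, and leaving out any array but knockdown replicate 3 ended it for Chrna9. The adjusted p ranged from 0.029 to 0.167 over the alternatives for Chrna5 and from 0.019 to 0.178 for Chrna9. Of the 15 alternatives in which each was tested, it stayed below 0.05 in 4 for Chrna5 and in 7 for Chrna9. The part that the higher level of undetected probes on knockdown replicates 2 and 3 has in these calls was not tested. Knockdown replicate 1, which shares its slide row with the controls, lay above the control mean by 1.26 for Chrna5 and by 1.18 for Chrna9, with adjusted p of 0.17 and 0.18 in the fit with the slide row as a block.

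The muscle-type subunits gave no call in the main fit. Chrna1, the alpha subunit of the muscle receptor, lay at -3.69, -4.09 and -4.07 in control and at -4.11, -4.66 and -5.02 in knockdown. The groups did not overlap, but the spread of the knockdown arrays left the change of -0.65 ± 0.26 short of the threshold (adjusted p 0.142). These values are of the brightest Chrna1 probe, and its other probe was detected on no array. Chrnb1 was detected on the 3 controls and on no knockdown array. On the main scaling its mean was at least 1.52-fold lower, which did not pass the threshold (adjusted p 0.0751). Over the alternatives the Chrnb1 change ranged from -1.76 to -0.071. Chrne was detected on knockdown replicate 2 alone, at -1.65, against -8.45 to -6.50 on the other 5 arrays.

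Htr3a was the receptor gene that fell past both thresholds. It encodes the subunit that every 5-HT3 receptor contains and that can form the channel by itself. Its levels were 0.05, 0.09 and 0.21 in control and -0.45, -0.50 and -0.51 in knockdown. The knockdown arrays lay close together and below all controls (change -0.60 ± 0.057, 1.52-fold lower, adjusted p 0.00249). The adjusted p stayed below 0.05 in 16 of 16 alternative settings, while the fold change passed 1.5 in 14. It was under 1.5-fold with the slide row as a block (-0.56) and without control replicate 3 (-0.56).

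P2rx3, the P2X subunit of sensory neurons, was lower in knockdown on both of its probes, whereas the other P2X genes had no adjusted p below 0.05 on their brightest probes. On its brightest probe it stood at -2.16, -2.07 and -2.01 in control and at -2.48, -2.56 and -2.57 in knockdown (change -0.46 ± 0.059, adjusted p 0.00624). The other probe gave -0.47 ± 0.046 (adjusted p 0.003). The groups did not overlap on either probe, and both changes were under 1.5-fold. P2rx2, which forms mixed channels with P2rx3, differed by 0.023 (95% interval -0.30 to 0.35, adjusted p 0.919). P2rx4 had the narrowest interval of the 20 genes detected on all 6 arrays without an adjusted p below 0.05. It stood at 1.86, 1.84 and 1.88 in control and at 1.86, 1.93 and 1.92 in knockdown (change 0.044, -0.063 to 0.15, adjusted p 0.512). P2rx1, known from smooth muscle and platelets, differed by -0.029 ± 0.084 (adjusted p 0.841), and P2rx5 by 0.27 ± 0.17 (adjusted p 0.330).

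P2rx7, the P2X channel of immune cells, was read by 3 probes, whose values are given side by side. Its brightest probe, A_55_P2183010, differed by -0.041 ± 0.086 (adjusted p 0.774). Probe A_52_P393314 stood at -1.18, -1.17 and -1.02 in control and at -1.48, -1.60 and -1.73 in knockdown (change -0.48 ± 0.087, adjusted p 0.017). Probe A_51_P506733 differed by 0.12 ± 0.072 (adjusted p 0.292). The 3 probes were detected on all 6 arrays. Within each array, the difference between A_52_P393314 and A_55_P2183010 was lower in every knockdown array than in every control, by 0.44 on average (change -0.44). This comparison was chosen after the probe values were seen and is a description without a test.

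**Figure D4:**
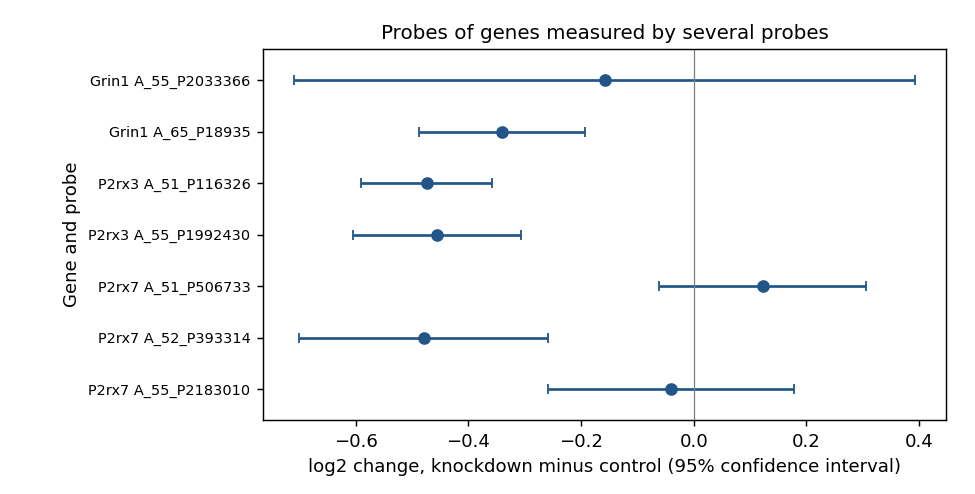
Change of each probe (horizontal axis, knockdown minus control in log2, with 95% confidence intervals) for the probes detected on all 6 arrays of P2rx7, P2rx3 and Grin1 (vertical axis). The P2rx3 probes coincide near -0.46 and -0.47, while for P2rx7 A_52_P393314 lies at -0.48 and the other 2 probes near 0.

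Genes whose proteins assemble, anchor or modulate these receptors were read from 4 lists, with 78 genes on the array besides Grid2ip. Of 67 tested, Dlg3 alone was called lower (1.49%) and 0 were called higher (limma), against 5.0% and 3.91% of all genes. At an adjusted p below 0.05 without a minimum fold, 9 (13.4%) were lower and 13 (19.4%) higher, against 15.8% and 15.7% of all genes, and the median change was -0.0015. At an unadjusted p below 0.05 there were 13 lower and 18 higher. Dlg3, a scaffold that binds NMDA receptors, stood at -2.05, -2.24 and -2.28 in control and at -2.82, -2.83 and -2.95 in knockdown (change -0.68 ± 0.081, adjusted p 0.00496). No partner gene was called lower with normexp background correction or with the slide row as a block. The scaffold list, Grid2ip included, had 4 of 23 tested genes lower and 8 higher by adjusted p alone. The list of AMPA and kainate auxiliary proteins had 0 lower (0 also at an unadjusted p below 0.05) and 1 higher of 16, that of GABA-A and glycine receptor anchoring 4 lower and 4 higher of 17, and that of nicotinic and 5-HT3 chaperones 1 lower and 1 higher of 12. The ionotropic genes outside the symbol rule, Chrng, Gabrp and Gabrq, had 2 tested and 0 called, with 1 lower and 0 higher at an unadjusted p below 0.05.

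Metabotropic receptors, which act through G proteins, were read for the same transmitters. Of 38 with a probe, 18 were tested, 13 were detected on all 6 arrays and 20 on no array. P2ry6 and Grm8 were called lower, which is 11.1% against 5.0% of all genes, and 0 were called higher. By adjusted p alone 5 (27.8%) were lower and 0 higher, against 15.8% and 15.7% of all genes. At an unadjusted p below 0.05, 7 were lower and 3 higher, and the median change over the 18 was -0.22. P2ry6, a receptor for uridine nucleotides, stood at -1.69, -1.65 and -1.59 in control and at -2.91, -3.11 and -2.94 in knockdown (change -1.34 ± 0.070, adjusted p 0.000598). Grm8, a presynaptic glutamate receptor, was detected on the 3 controls and on 1 knockdown array (change -0.67 ± 0.16, adjusted p 0.0367).

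**Figure D5:**
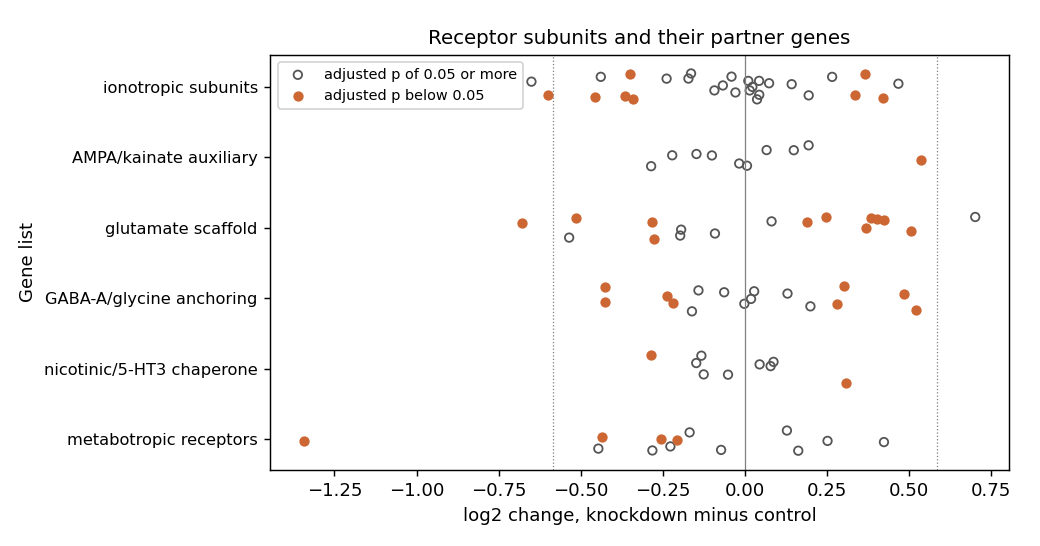
Change of each gene detected on all 6 arrays (horizontal axis, knockdown minus control in log2) in the ionotropic subunits, the 4 partner lists and the metabotropic receptors (vertical axis, points spread at random within a row). Filled points have an adjusted p below 0.05, and dotted lines mark a 1.5-fold change in either direction. Htr3a at -0.60, Dlg3 at -0.68 and P2ry6 at -1.34 are the filled points beyond the dotted lines.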

How the data were processed

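Total RNA was labelled with Cy3 and hybridized to 6 arrays, 3 labelled Vector and 3 labelled YAYC, grouped by their titles. The authors deposited the scanner tables, in which the processed signal is an intensity on a linear scale after background correction by Agilent Feature Extraction, with flags for outlier, saturated and well-above-background spots as other columns. The authors also deposited a table of log2 values, which matched the scaling below to within 0.0076 and served as an alternative. Their methods excluded genes under the 20th percentile.

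Control and outlier spots were left out. The 75th percentile of each array was subtracted from log2 processed signal, spots of a probe were averaged, and 42126 of 55681 probes at or above the array's 20th percentile on all 3 arrays of a group were tested. Accessions were matched to RefSeq symbols (GRCm38.p6), the array annotation being of another build, and a gene was read from its brightest probe (16490 genes). Knockdown and control were tested in R 4.3.3 by limma 3.58.1 (lmFit, eBayes, two-sided; no covariates), adjusted by Benjamini-Hochberg over all probes, and the script was tested on simulated data. A probe detected on no array of a group has a bound in place of a fold. For it, each array of the dim group took the larger of its measured value and that array's lowest signal well above background. The mean of these was set against the bright group. Such a bound concerns means and takes no account of the spread between arrays. An undetected array of the bright group entered at its measured value, so for Chrna5 and Chrna9 the bound is not strict.

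The named genes are Nfya, Nfyb, Nfyc, receptor genes detected on all 3 arrays of a group or called, and up to 4 called genes of each partner list, and undetected or single-array genes named besides were chosen after their values were seen. The members, gene lists and alternatives were chosen with earlier results of these data known. Alternatives were quantile normalization, normexp (offset 50) on median signals, the deposited log2 table, other filters, averaged probes, a variance trend, replicate and slide row blocks, no minimum fold and leaving out each array. Normexp had been planned on mean signals. The setting without a minimum fold changes only the rule for a call, so its changes and adjusted p are those of the main fit. Some genes that enter the counts are not reported here by name. The number of arrays limits the precision.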

Additional observations from a re-analysis of the deposited data

How the results depend on the processing

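Htr3a, Nfya, Nfyb and Nfyc kept their direction and an adjusted p below 0.05 in all 16 alternatives. The counts of receptor genes called moved with the setting, from 1 lower and 2 higher in 2 families. They were 2 lower and 1 higher with quantile normalization, 0 higher in 1 family with normexp (chosen after seeing the data), 1 higher without the filter on dim probes, 2 lower and 0 higher with the well-above-background filter, 3 lower with averaged probes and 2 lower with a variance trend. With the slide row as a block they were 0 lower, 0 higher and 0 families, and without a minimum fold 5 lower, 6 higher and 7 families, Grid2ip counted as a family. Leaving out each array gave 0 to 3 lower, 0 to 1 higher and 1 to 3 families, with 0 lower without Vector replicate 3 and 3 lower without YAYC replicate 1. Partner genes called lower were 0 with normexp and with the slide row as a block and 9 without a minimum fold, and called higher 1 with averaged probes and 13 without a minimum fold. The median change of the receptor genes was 0.14 without the filter on dim probes, where undetected genes enter. The causes were not tested. Same-numbered samples correlated at 0.018, 0.067 and 0.0025 in their deviations, so the numbers were not taken as pairs. With the replicate number as a block the receptor genes called were 1 lower and 0 higher in 1 family and the partner genes 1 higher. The median change of all genes stayed between 0.0011 and 0.019 under the 4 scalings. Arrays near background limit Chrna5, Chrna9 and Chrnb1 to bounds, which concern the main scaling only.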
